A study of Mus musculus with 24 samples.

Results

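The genes described here are 48 cell cycle genes, 17 that act in DNA replication and its onset and 31 that act in mitosis, among the 19937 genes measured on 24 arrays. They were chosen by gene symbol. Each gene is read from a probe set that carries only its symbol. Of the 2 genes with more than 1 such probe set, Pcna and Top2a, the one with the higher mean over all arrays was used. The cells are mammary epithelial cells of mice that carry Lgr5-creERT2, a Cre recombinase under Lgr5 control that tamoxifen switches on. In mutant mice (Lgr5-creERT2/PIK3CA H1047R) tamoxifen turns on a transgene for an activated form of PIK3CA, the catalytic subunit of PI3 kinase. In control mice (Lgr5-creERT2) it does not, and these mice were given tamoxifen too.

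All cells were taken 4 weeks after tamoxifen from mice of mixed FVB/C57BL6 background, when the glands were preneoplastic by their label. The 8 groups hold 3 arrays each. They are mutant basal GFP-positive, mutant basal GFP-negative, mutant luminal Sca1-negative and mutant luminal Sca1-positive cells, and the same 4 gates of control mice. Basal cells were sorted as CD45 negative, CD24 low and Sca1 negative, and luminal cells as CD45 negative and CD24 high. GFP stands for Lgr5, for transgene expression or for both. The mutant luminal cells were GFP-positive and the control luminal cells GFP-negative, so genotype and GFP cannot be told apart in the luminal gates. Basal GFP-positive cells express the transgene in mutant mice and Lgr5 in control mice. There too, genotype and what GFP marks cannot be told apart. Each array holds amplified RNA of 250 cells from the pooled glands of 2 to 3 mice brought to the same stage of the estrous cycle, and the 3 arrays of a group come from separate sortings. The recombinase limits the model to cells in which Lgr5 was active when tamoxifen was given, and to their progeny. The age of the mice is not given in the sources used here.

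The keratins went with the basal and luminal labels. Krt5 lay between 11.46 and 11.99 in the 12 basal arrays and between 4.93 and 8.94 in the 12 luminal arrays on the log2 scale, and Krt18 between 12.55 and 12.80 in the luminal arrays. In control basal cells Lgr5 lay at 9.14 or more in the GFP-positive arrays, against 7.04 to 8.83 in the GFP-negative arrays. In mutant basal cells it did not go with GFP, at 7.29, 6.08 and 5.53 in the GFP-positive arrays, against 7.18, 7.29 and 7.55 in the GFP-negative arrays. Pik3ca lay between 7.62 and 8.42 in the 9 mutant GFP-positive arrays and between 7.05 and 7.98 in the mutant basal GFP-negative arrays, against 6.78 to 7.93 in the 12 control arrays. Whether its probes read the transgene is not given in the sources used here. Signal had a narrower spread in the 3 control arrays of basal GFP-positive cells, with a standard deviation over genes of 1.68 to 1.77 and a mean of 3.73 to 3.75 over receptors of smell, against 1.86 to 1.87 and 3.59 to 3.62 in the mutant basal GFP-positive arrays. The level below which a gene counts as background was 4.30, the 95th percentile of 1190 odorant and vomeronasal receptor genes, which epithelial cells are not expected to use.

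A dividing cell first copies its DNA and then separates the copies. Cyclin E with its kinase and the E2F factors start replication: the MCM helicase is loaded on origins by Cdc6 and Cdt1, and Pcna, ribonucleotide reductase (Rrm1, Rrm2) and thymidylate synthase (Tyms) serve the synthesis of DNA. Mitotic genes such as cyclin B (Ccnb2), Cdk1, the Aurora and Polo kinases, the spindle checkpoint and the kinesins are made later in the cycle. Many of the first kind carry binding sites for E2F in their promoters, and many of the second kind carry a CHR element and CCAAT boxes, bound by the DREAM and MuvB complexes and by NF-Y. In a mammary gland that is not pregnant few epithelial cells divide, and their number varies with the estrous cycle.

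Promoter sequences were compared because the 2 phases are known for different promoter elements. The windows run from 250 bases before to 50 after a transcript start of each gene, are from RefSeq (build GRCm38.p6), and were found for 40 of the 48 members, 14 of replication and 26 of mitosis, in 43 windows. The letters TTTGAA or their complement TTCAAA, those of a CHR-type element, were in 78.6% of the 28 mitosis windows and in 6.67% of the 15 replication windows, with 17.9% in the 32851 windows of all genes. The E2F letters were searched as TTTCCCGC, TTTCGCGC, TTTGCCGC and TTTGGCGC with their complements GCGGGAAA, GCGCGAAA, GCGGCAAA and GCGCCAAA. They were in 1 of the 28 mitosis windows and in 6 of the 15 replication windows, with 2.26% in all windows. The letters CCAAT or ATTGG were in 22 mitosis windows, 9 replication windows and 37.4% of all windows. GGGCGG or CCGCCC, the letters of a GC box, were in 23 mitosis windows, 11 replication windows and 35.7% of all windows. In 7 windows, of Aurka, Cdc6, Cdca3, E2f1, Ect2 and Mcm7, the start used lies inside the gene, more than 250 bases from its outermost start. Over the 36 windows that hold the outermost start, a choice made after seeing the data, the CHR-type letters were in 18 of 24 mitosis and 1 of 12 replication windows, and the E2F letters in 1 and 5. These matches describe letters in a window and not bound sites.

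The promoters of 2 mitosis genes and 2 replication genes show this difference, and that of Ccne1 is shown because it is 1 of the 2 genes that passed the test below. The other, E2f1, is not shown, since its window lies 466 bases inside the outermost start. Capitals mark CHR-type, CCAAT and E2F letters on either strand, which overlap in places, and each sequence runs 5′ to 3′ along its gene. Top2a, which encodes the topoisomerase that untangles sister chromosomes, has its window at chr11:99024140-99024439 (minus strand), and Ccnb2 at chr9:70421505-70421804 (minus strand). Mcm6 and Mcm3 encode helicase subunits and have theirs at chr1:128359656-128359955 (minus strand) and chr1:20820263-20820562 (minus strand). Ccne1 has its window at chr7:38107441-38107740 (minus strand), and it holds none of the marked letters.
Top2a: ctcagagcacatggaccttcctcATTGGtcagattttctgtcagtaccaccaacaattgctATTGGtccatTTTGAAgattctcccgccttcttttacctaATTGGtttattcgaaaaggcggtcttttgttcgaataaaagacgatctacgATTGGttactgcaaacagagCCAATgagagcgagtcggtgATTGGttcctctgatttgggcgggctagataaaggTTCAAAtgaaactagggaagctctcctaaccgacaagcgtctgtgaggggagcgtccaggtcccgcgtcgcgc
Ccnb2: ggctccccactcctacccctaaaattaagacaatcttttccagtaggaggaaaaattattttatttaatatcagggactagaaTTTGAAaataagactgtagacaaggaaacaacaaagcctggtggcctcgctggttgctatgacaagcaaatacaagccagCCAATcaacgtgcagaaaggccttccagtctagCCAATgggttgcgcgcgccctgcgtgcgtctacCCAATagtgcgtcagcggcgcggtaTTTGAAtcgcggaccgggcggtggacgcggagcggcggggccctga
Mcm6: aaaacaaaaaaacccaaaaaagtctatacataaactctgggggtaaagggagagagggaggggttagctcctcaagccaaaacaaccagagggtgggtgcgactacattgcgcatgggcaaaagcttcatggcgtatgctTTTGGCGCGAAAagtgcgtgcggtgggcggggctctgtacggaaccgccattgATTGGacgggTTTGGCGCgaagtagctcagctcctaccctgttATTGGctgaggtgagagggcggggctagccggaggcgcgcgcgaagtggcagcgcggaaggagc
Mcm3: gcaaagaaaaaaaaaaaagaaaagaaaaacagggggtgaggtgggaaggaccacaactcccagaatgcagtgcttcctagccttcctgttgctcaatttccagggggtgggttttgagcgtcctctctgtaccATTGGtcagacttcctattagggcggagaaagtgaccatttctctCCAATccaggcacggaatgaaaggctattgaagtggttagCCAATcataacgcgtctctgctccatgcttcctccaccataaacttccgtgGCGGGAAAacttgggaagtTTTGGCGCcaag
Ccne1: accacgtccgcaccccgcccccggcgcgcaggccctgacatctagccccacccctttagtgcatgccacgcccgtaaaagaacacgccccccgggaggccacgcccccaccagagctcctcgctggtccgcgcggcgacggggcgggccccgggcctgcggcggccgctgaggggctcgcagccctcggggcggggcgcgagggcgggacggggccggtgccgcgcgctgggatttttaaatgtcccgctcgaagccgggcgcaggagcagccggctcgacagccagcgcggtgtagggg
The Top2a window held 2 CHR-type matches, the nearer of them 23 bases before the start, and 6 CCAAT matches. The Ccnb2 window held 3 CCAAT matches, at 87, 54 and 21 bases before the start. It also held 2 CHR-type matches, 167 bases before the start and 5 bases after it. The Mcm6 window held 3 E2F matches, of which 2 overlap, and the Mcm3 window held 2.

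Levels of 35 of the 48 genes were highest in 1 pool of mutant basal GFP-negative cells. Among the group means of all 48, the lowest was in control basal GFP-positive cells for 22 genes and in control luminal Sca1-positive cells for 22. The shares of all genes with their lowest mean in these groups are not given here. The median range of a member over all arrays was 2.36 log2 units for replication genes and 2.49 for mitosis genes, against 1.08 over all genes. At their group means 47 of the 48 members passed the background level in at least 1 group. Gins1, a subunit of the replicative helicase complex, did not pass it in any. The members above background numbered 42 in mutant basal GFP-positive cells and 32 in the control ones. They numbered 46 in mutant and 40 in control basal GFP-negative cells, 40 in mutant and 41 in control luminal Sca1-negative cells, and 40 in mutant and 33 in control luminal Sca1-positive cells. Because a member can pass in 1 group alone, these counts say nothing on their own about differences between groups.

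The mean log2 level of the 17 replication genes was 5.58, 5.44 and 6.06 in the mutant basal GFP-positive arrays, against 5.35, 5.50 and 5.15 in the control ones. It was 6.85, 5.79 and 5.30 in mutant basal GFP-negative arrays, against 6.13, 6.02 and 5.59 in control ones. In luminal Sca1-negative cells it was 5.75, 5.22 and 5.92 in mutant arrays, against 5.47, 5.50 and 5.61 in control arrays. The 2 genotypes overlapped in these 3 gates. In luminal Sca1-positive cells the means were 5.76, 5.45 and 5.97 in mutant arrays, all above the 5.30, 5.33 and 5.28 of control arrays.

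By their mean, the 31 mitosis genes ranked the arrays of each mutant group as the replication genes did, but not those of any control group. In control basal GFP-negative cells replicate 1 had the highest replication mean and the lowest mitosis mean. The mean of the mitosis genes was 5.12, 4.57 and 5.50 in mutant basal GFP-positive arrays, all above the 4.49, 4.41 and 4.44 of control ones, which were the tightest group. At their group means only 17 of the 31 passed the background level in these control cells, against 27 in the mutant ones. The mean was 6.59, 5.15 and 4.41 in mutant basal GFP-negative arrays, against 4.97, 5.28 and 5.05 in control ones. The mutant pools here lay on both sides of all 3 control pools. In luminal Sca1-negative cells it was 5.30, 4.80 and 5.51 in mutant arrays, against 4.63, 5.11 and 5.02 in control arrays, and in luminal Sca1-positive cells 5.32, 4.79 and 5.33, against 4.55, 4.85 and 4.56. Both luminal gates overlapped between genotypes, since the mutant replicate 2 of each lay below a control array.

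**Figure D1:**
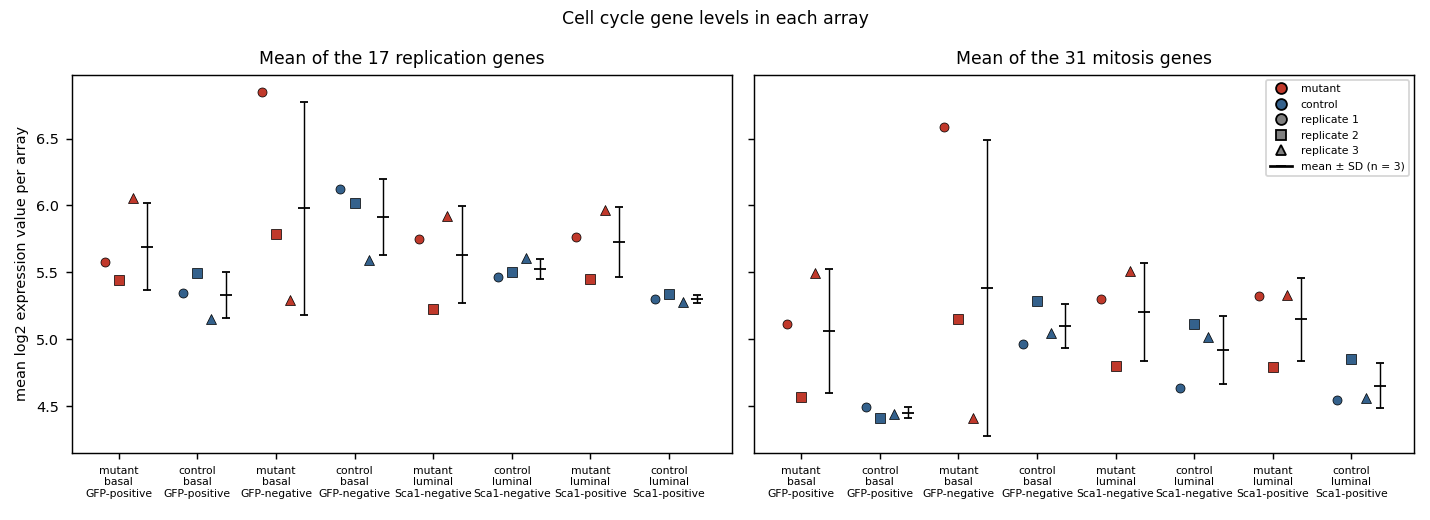
Mean log2 expression value of the 17 replication genes (left) and the 31 mitosis genes (right) in each of the 24 arrays, by group, with the group mean ± SD (n = 3) beside the points. The mutant basal GFP-negative arrays spread from 5.30 to 6.85 and from 4.41 to 6.59, and the control basal GFP-positive mitosis means lie within 4.41 to 4.49.

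The widest spread belonged to mutant basal GFP-negative cells, which by their label express neither Lgr5 nor the transgene, and in which Lgr5 read 7.18 to 7.55. Replicate 1 of this group was the highest of all 24 arrays for 35 of the 48 members, 11 of replication and 24 of mitosis, whereas it was the highest array for 4.47% of all genes. Mki67, the proliferation marker Ki-67, stood at 8.64, 6.53 and 5.35 in the 3 mutant arrays, against 6.56, 6.87 and 6.94 in control basal GFP-negative arrays. Top2a stood at 8.03, 6.42 and 4.41, against 6.96, 7.24 and 6.68. For both genes 1 mutant pool lay above and the other two below every control pool. Mcm6 stood at 8.09, 6.16 and 5.15 in mutant arrays, against 6.52, 5.85 and 6.41, and Ccnb2 at 8.80, 7.11 and 6.42, against 6.68, 8.16 and 6.29.

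The spread ran through both phases. Within this mutant group replicate 1 was highest for 15 of 17 replication genes and 29 of 31 mitosis genes, and replicate 3 lowest for 15 and 29. The median standard deviation of a member over the 3 arrays was 1.13 log2 units, against 0.139 over all genes and 0.265 over genes above background in the same arrays. It exceeded 1 for 27 of 48 members and for 2.41% of all genes. In the control basal GFP-negative group the median was 0.334, and in control basal GFP-positive cells 0.149. Genes outside the 48 were high in the same array: the mean of 29 other replication genes was 6.22, 5.50 and 4.98 in the 3 mutant arrays, and that of 41 other mitosis genes 5.85, 4.93 and 4.56.

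Markers of cell type moved with replicate 1 to a smaller degree. The mean of 9 basal markers was 10.41 in it, against 10.82 and 10.83 in the other two arrays of the group. The mean of 7 luminal progenitor markers was 6.73, against 7.31 and 7.44, and that of 16 leukocyte markers 4.12, against 4.17 and 4.23. These 3 lists, and those of luminal, hormone-sensing luminal and adipocyte markers, were lowest in the array where the cell cycle genes were highest. The mean of 8 fibroblast markers was highest there, at 4.94, against 4.90 and 4.64, and so was the 1 measured erythroid marker, at 4.37, against 4.20 and 4.22. The leukocyte means lay below the background level of 4.30. The part of these lists in the spread was not tested. In a bulk sample of 250 cells, more dividing cells and more message per dividing cell cannot be told apart.

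**Figure D2:**
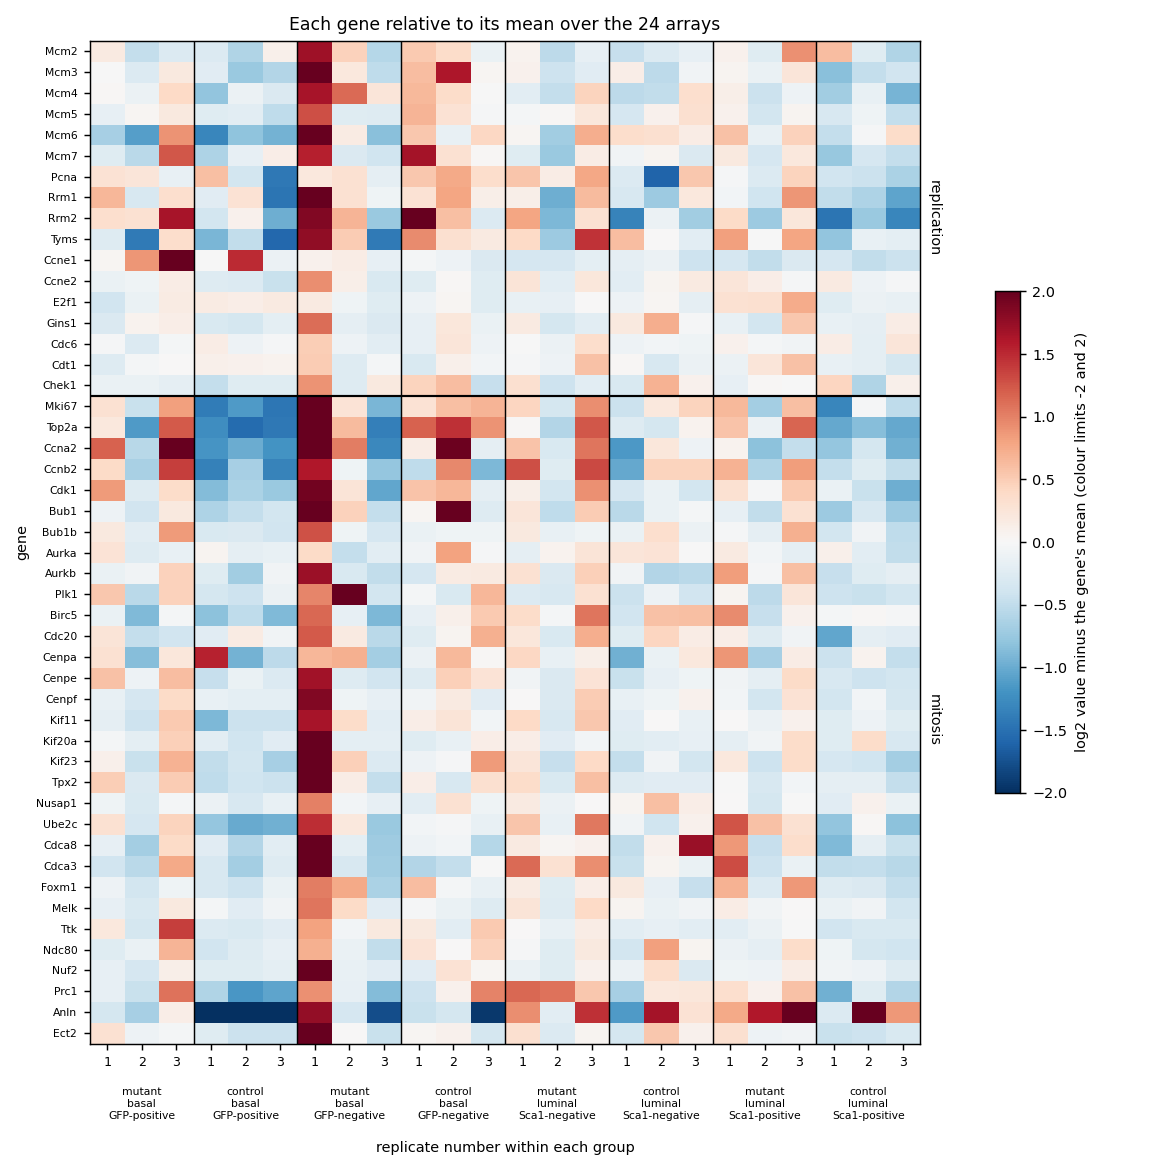
Log2 value of each of the 48 genes in each array minus that gene's mean over the 24 arrays, with replication genes above and mitosis genes below the line; red is higher and blue lower, and colours stop at differences of -2 and 2. Replicate 1 of the mutant basal GFP-negative group is red for nearly every gene, and the 3 control basal GFP-positive columns are blue for most mitosis genes.

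The mutant arrays that carried GFP also differed among themselves in all 3 gates. The replication means had an SD of 0.32 in basal, 0.36 in luminal Sca1-negative and 0.26 in luminal Sca1-positive arrays. For the mitosis means it was 0.47, 0.37 and 0.31. Replicate 2 was lowest for most mitosis genes in all 3 gates, and for replication genes mainly in the luminal ones. In mutant basal GFP-positive cells replicate 2 was the lowest array for 9 of 17 replication and 29 of 31 mitosis genes, and for 33.1% of all genes. In mutant luminal Sca1-negative cells replicate 2 was lowest for 16 of 17 replication and 29 of 31 mitosis genes, and in mutant luminal Sca1-positive cells for 12 and 26, where it was lowest for 28.2% and 36.2% of all genes. Mki67 shows it: the 3 arrays stood at 6.57, 5.82 and 7.08 in basal, 6.69, 5.91 and 7.20 in luminal Sca1-negative and 6.91, 5.59 and 6.87 in luminal Sca1-positive cells. In the control gates replicate 2 was lowest for 15 of 31 mitosis genes in basal GFP-positive cells and for 4, 4 and 2 in the other three. The labels do not say whether a number marks one sorting.

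In basal GFP-positive cells, which express the transgene in mutant mice and Lgr5 in control mice, no member passed the test between genotypes. The test was a limma fit over all 8 groups with an adjusted p under 0.05. It called 4.74% of all genes higher and 7.81% lower in this comparison. The differences nonetheless leaned one way: 43 of 48 members had a higher mean in mutant cells, with a median log2 difference of 0.37 for replication and 0.43 for mitosis genes, whereas the median of all genes was -0.10. At an unadjusted p under 0.05 there were 8 members, all mitosis genes and all higher in mutant cells, beside 31.8% of all genes in either direction.

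The genes nearest to the threshold were mitotic. Ccna2, the cyclin of late replication and of entry into mitosis, stood at 7.34, 5.60 and 8.18 in mutant arrays, against 4.98, 5.16 and 4.96 in control arrays, a difference of 2.00 ± 0.74 (SE; limma adjusted p = 0.0791). Mki67 stood at 6.57, 5.82 and 7.08, against 4.86, 5.13 and 4.82, a difference of 1.55 ± 0.61 (limma adjusted p = 0.0916). Ube2c, which carries ubiquitin for the anaphase-promoting complex, stood at 6.49, 5.85 and 6.63, against 5.41, 5.18 and 5.22 (1.05 ± 0.42, limma adjusted p = 0.0996). Every mutant array lay above every control array for these 3 genes. The control pools were tight and the mutant pools spread widely.

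Prc1, which bundles the central spindle, stood at 4.79, 4.50 and 6.04 in mutant arrays, against 4.35, 3.78 and 3.90 in control arrays (limma adjusted p = 0.104). Top2a stood at 5.99, 4.65 and 7.01, against 4.53, 4.23 and 4.35, and its difference of 1.51 had a 95% interval of 0.08 to 2.94 before adjustment. Rrm2, the regulated subunit of ribonucleotide reductase, was the widest among replication genes at 6.46, 6.43 and 7.78, against 5.77, 6.21 and 5.15 (1.18 ± 0.68, limma adjusted p = 0.240). Mutant and control arrays did not overlap for 14 mitosis and 4 replication genes with mutant higher, and for Cdt1 with mutant lower, where 10.1% and 25.2% of all genes did not overlap in those directions. The share of 14 in 31 was thus above that of all genes and the share of 4 in 17 nearer to it.

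How many members passed changed with the arrays in the fit. Without the 3 mutant basal GFP-negative arrays, an alternative chosen after seeing the data, 4 members passed as higher in mutant basal GFP-positive cells: Mki67, Ccna2, Cdk1 and Ube2c, with adjusted p between 0.0313 and 0.0475. Without mutant replicate 2, Ccna2 and Ttk passed, and without control replicate 2, Ccne1 passed. The signal differences of the control arrays given above, and a mean of the 7 luminal progenitor markers of 7.53 to 7.68 in mutant against 5.63 to 6.18 in control arrays, move with this comparison. So does the mean of the 8 fibroblast markers, at 5.12 to 5.31 in mutant against 4.59 to 4.78 in control arrays, with Dcn and Col1a2 called higher, by log2 differences of 4.30 and 0.46, and 4 of the 8 with a higher mean. The means of the basal, hormone-sensing luminal, leukocyte, endothelial and pericyte lists lay lower in every mutant array than in any control array. The 1 measured erythroid gene did too. The leukocyte, endothelial, pericyte and erythroid values of the mutant arrays, 3.96 to 4.21, lay below the background level of 4.30. The part of these values in the comparison was not tested.

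Among genes of the cycle outside the 48, some passed in basal GFP-positive cells. Cks2, a small subunit of cyclin-dependent kinases, stood at 8.32, 9.03 and 9.16 in mutant arrays, against 5.65, 7.50 and 4.91 in control arrays, and rose by 2.82 ± 0.45 (limma adjusted p = 0.000811). Its relative Cks1b rose by 1.62 ± 0.41 (9.04, 9.73 and 10.05, against 7.55, 8.01 and 8.39), and Orc6, of the origin recognition complex, by 1.41 ± 0.38. Orc6 was 1 of 29 measured other replication genes and the Cks genes 2 of 41 other mitosis genes, shares near the 4.74% of all genes called higher, and no gene of either list passed as lower. With the probe sets of Cks2 averaged its difference was 1.64. Orc6 lost the call without either of mutant replicates 1 and 2 or control replicates 2 and 3, and Cks1b without mutant replicates 2 or 3 or control replicate 1. Cyclin D2 (Ccnd2), which opens the cycle with Cdk4 and Cdk6, rose to 7.42, 7.70 and 7.85 in mutant arrays, against 5.90, 6.55 and 5.67 in control arrays, whereas its partner Cdk6 fell to 5.26, 4.66 and 5.34, against 6.66, 9.63 and 6.50. Without control replicate 2 the difference of Cdk6 was -1.49, in place of -2.51, and still passed. Without mutant replicate 2 it did not pass, and Ccnd2 did not without mutant or control replicate 3.

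Inhibitors of the cycle changed both ways there. Of 13 measured, Cdkn1c (p57, which blocks cyclin-dependent kinases) rose by 0.60 ± 0.11 and Btg1, an antiproliferative gene, by 0.71 ± 0.21, and Cdkn2a, the locus of p16 and p19Arf, fell by 0.38. Without control replicate 3 neither Btg1 (0.36) nor Cdkn2a passed, nor did either without mutant replicate 2. Cdkn1c stood at 5.78, 5.54 and 5.65 in mutant basal GFP-positive arrays, against 4.55 to 5.21 in the other 21 arrays, and none of those reached the lowest of the 3. It was also higher than in mutant basal GFP-negative cells (0.79 ± 0.11, limma adjusted p = 0.000200) and than in control basal GFP-negative cells (0.78 ± 0.11, adjusted p = 0.000220). These 3 comparisons share the mutant basal GFP-positive arrays.

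In basal GFP-negative cells no member passed between genotypes, where 0.0451% of all genes were called higher and 0.015% lower. Without overlap between genotypes, Pcna lay lower in mutant arrays and no member higher, beside 6.8% and 3.69% of all genes. The medians were 0.08 for replication and 0.30 for mitosis genes, against -0.03 for all genes, and 36 of 48 members had a higher mean in mutant cells. The direction came from the single high array. Without mutant replicate 1 the medians were -0.29 and -0.21, only 5 of 48 members had a higher mean in mutant cells, and 4 replication and 5 mitosis genes lay below all control arrays without overlap, beside 12.8% of all genes. The 95% interval for Mki67, -1.22 to 1.33 with all arrays, leaves a change of over 2-fold in either direction unresolved.

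In luminal Sca1-negative cells no member passed either. Of all genes, 0.557% passed with mutant higher and 0.171% with mutant lower. The medians were 0.08 and 0.22, against -0.04 for all genes. Prc1 had the smallest p, at 6.10, 6.04 and 5.49 in mutant arrays, against 4.29, 5.16 and 5.18 in control arrays (0.997 ± 0.447, limma adjusted p = 0.417). Prc1, Cdca3 and Ttk did not overlap between genotypes, 3 of 48 beside 7.64% of all genes. Basal markers moved with this comparison, with a mean of 6.53 to 6.94 in mutant against 5.27 to 5.46 in control arrays. Fibroblast markers averaged 4.36 to 4.64 in mutant against 4.96 to 4.97 in control arrays, and hormone-sensing luminal markers 5.05 to 6.02 against 6.05 to 7.02. The part of these lists was not tested.

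In luminal Sca1-positive cells E2f1 rose in the mutant, and it was the only member that passed, where 0.401% of all genes were called higher and 0.376% lower. E2f1, an E2F factor that activates genes of replication, stood at 5.25, 5.27 and 5.68 in mutant arrays, against 4.71, 4.83 and 4.80 in control arrays. The groups did not overlap, and the log2 difference was 0.62 ± 0.14 (SE, 95% interval 0.33 to 0.91, limma adjusted p = 0.0383), a 1.54-fold difference. The call was lost in 10 of 15 alternatives, among them leaving out mutant replicate 2 or 3 or any 1 control array, at an adjusted p of up to 0.274. In each of the 15 the difference was positive, between 0.48 and 0.69.

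The remaining members leaned the same way in this gate without passing: 45 of 48 had a higher mean in mutant cells, with medians of 0.45 for replication and 0.42 for mitosis genes against 0.00 for all genes. The arrays did not overlap for 7 replication and 10 mitosis genes with mutant higher, beside 8.15% of all genes, and for none with mutant lower, beside 7.51%. Ube2c stood at 7.45, 6.77 and 6.49 in mutant arrays, against 5.39, 6.21 and 5.37 in control arrays (1.25 ± 0.42, limma adjusted p = 0.301). Top2a stood at 6.35, 5.66 and 6.95, against 4.76, 4.93 and 4.75 (1.504 ± 0.681, limma adjusted p = 0.601). Tyms stood at 7.52, 6.69 and 7.48, against 5.90, 6.55 and 6.50, and Rrm2 at 6.51, 5.39 and 6.36, against 4.66, 5.38 and 4.82.

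Cell type markers moved with the gate as well. The mean of the luminal progenitor markers was 7.39 to 9.27 in mutant luminal Sca1-positive arrays, against 6.39 to 6.70 in control ones. The mean of the basal markers was 6.53, 5.36 and 5.43 in mutant arrays, against 5.32 to 5.38 in control ones, and that of the fibroblast markers 4.65 to 4.93, against 5.02 to 5.15. Of the 8 fibroblast markers, however, 6 had a higher mean in mutant cells, and Dcn was called lower, with a log2 difference of -3.01. The part of these lists in the differences of E2f1 and the other members was not tested. The mutant effect on E2f1 in this gate minus that in luminal Sca1-negative cells was 0.64 ± 0.19, with a limma adjusted p of 0.373, so a difference between the gates was not shown.

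**Figure D3:**
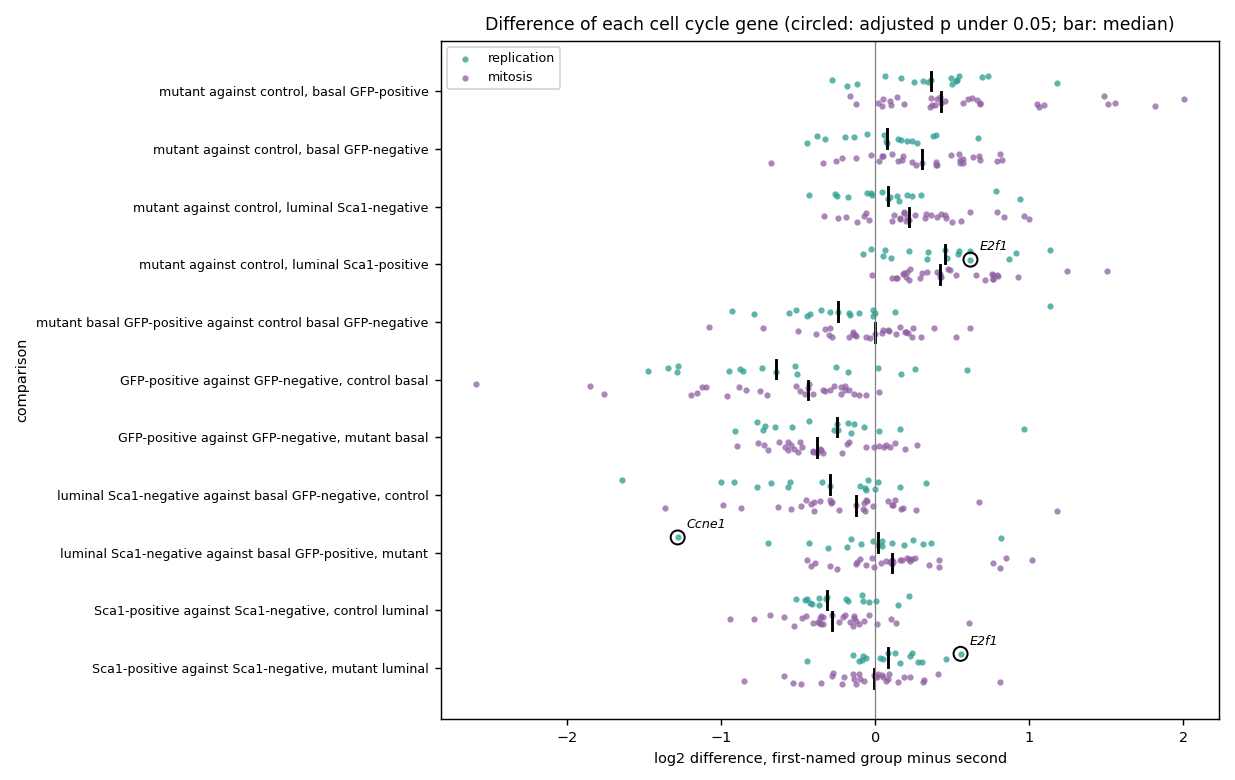
Log2 difference of each gene in the 11 comparisons of group pairs, first-named group minus second, with replication and mitosis genes apart, bars at their medians and circles around the genes with an adjusted p under 0.05. Circles stand at E2f1 (0.62 and 0.55) and Ccne1 (-1.28) only, and both medians are below 0 for control basal GFP-positive against GFP-negative cells.

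E2f1 was also higher in mutant luminal Sca1-positive cells than in mutant luminal Sca1-negative cells, where it stood at 4.80, 4.78 and 4.95 (0.55 ± 0.14, 95% interval 0.27 to 0.84, limma adjusted p = 0.0275). The call was lost without Sca1-negative replicate 1 or 2 or Sca1-positive replicate 3. This comparison called 1.81% of all genes higher and 1.85% lower, and it shares the 3 mutant Sca1-positive arrays with the comparison above. E2f1 was the only member whose arrays did not overlap, beside 9.87% of all genes with Sca1-positive higher and 10.2% with it lower. Of the other lists, Ccnf, the cyclin F of a ubiquitin ligase, rose to 5.89, 5.91 and 4.67 in Sca1-positive arrays, against 4.34, 4.35 and 4.78, and Rb1, the retinoblastoma protein that restrains E2F factors, fell by 1.84. Ccnf lost the call without replicate 1 or 2 of either group, and Rb1 without Sca1-negative replicate 1 or 3 or Sca1-positive replicate 2 or 3. In order of mean, E2f1 stood at 5.40 ± 0.24 (SD, n = 3) in mutant luminal Sca1-positive cells, then at 5.10 ± 0.03 in control basal GFP-positive cells, and between 4.78 and 4.90 in the other 6 groups. Its 24 values spanned 1.12 log2 units, a narrow range among the 48.

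In control luminal cells, Sca1-positive against Sca1-negative, no member passed, where 2.08% of all genes were called higher and 1.61% lower. The medians were -0.31 for replication and -0.28 for mitosis genes, against -0.04 for all genes, and 41 of 48 members had a lower mean in Sca1-positive cells. Top2a stood at 4.76, 4.93 and 4.75 in Sca1-positive arrays, against 5.52, 5.42 and 5.85 in Sca1-negative arrays, and was among 4 members without overlap with Sca1-positive lower, beside 13.8% of all genes. Rb1 fell to 6.71, 6.81 and 7.05 in Sca1-positive arrays, against 9.49, 8.28 and 8.90 (-2.03 ± 0.46, limma adjusted p = 0.0169). In the mutant the same gene stood at 8.68, 7.79 and 7.91 in Sca1-positive arrays, against 10.44, 9.61 and 9.85. Smc4, a condensin subunit, fell by 1.36 in control cells, a call lost when any 1 of the 6 arrays was left out, and Rb1 in control cells lost its call without Sca1-negative replicate 1 or Sca1-positive replicate 1 or 2.

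Whether the mutant effect itself differed between gates was tested as a difference of differences, and no member passed in any of 3. In the basal GFP-positive and luminal gates the mutant effect cannot be told apart from what GFP marks. Basal GFP-positive minus basal GFP-negative cells gave a median of 0.32 for replication and 0.13 for mitosis genes, where 0.772% of all genes were called higher and 0.301% lower. Luminal Sca1-positive minus Sca1-negative cells gave 0.31 and 0.20, where 0.0803% were called higher and 0.0803% lower. Luminal Sca1-negative minus basal GFP-positive cells gave -0.35 and -0.24, where 0.381% were called higher and 0.647% lower. The number of members at an unadjusted p under 0.05 was 2, 1 and 0 of 48 in these tests, beside 13.9%, 7.13% and 11.8% of all genes.

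Control basal cells that carried GFP, which are labelled as Lgr5-expressing, held the lowest levels of mitosis genes. No member passed against control basal GFP-negative cells, where 0.507% of all genes were called higher and 0.747% lower. The medians were -0.64 for replication and -0.43 for mitosis genes, against 0.05 for all genes, and 43 of 48 members had a lower mean in GFP-positive cells. At an unadjusted p under 0.05 there were 11 of 48 members, all lower, beside 16.7% of all genes in either direction. The arrays did not overlap for 7 replication and 15 mitosis genes with GFP-positive lower, 22 of 48 beside 5.75% of all genes, and for E2f1 with GFP-positive higher, beside 9.87%.

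Top2a stood at 4.53, 4.23 and 4.35 in control GFP-positive arrays, against 6.96, 7.24 and 6.68 in control GFP-negative arrays (-2.59 ± 0.68, limma adjusted p = 0.0709). Mki67 stood at 4.86, 5.13 and 4.82, against 6.56, 6.87 and 6.94 (-1.85 ± 0.61, limma adjusted p = 0.139). For both genes each set of 3 arrays was tight and the sets lay far apart. Among replication genes Mcm3 stood at 4.60, 4.10 and 4.25, against 5.46, 6.46 and 4.88 (-1.28 ± 0.47, limma adjusted p = 0.184), and Mcm6 at 4.68, 5.19 and 5.05, against 6.52, 5.85 and 6.41. Without the mutant basal GFP-negative arrays in the fit, an alternative chosen after seeing the data, Top2a, Mki67 and Mcm3 passed as lower, with adjusted p between 0.0193 and 0.0472.

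Of the other lists, Cks2 fell by 2.32 and Ccnd2 by 2.45 in control GFP-positive cells. The difference of Cks2 was -0.95, with a limma adjusted p of 0.292, when its probe sets were averaged, and it lost the call without GFP-positive replicate 1 or 3 or GFP-negative replicate 1 or 2. Ccnd2 stood at 5.90, 6.55 and 5.67 in GFP-positive arrays, against 8.47, 9.14 and 7.87 in GFP-negative arrays. The signal of these arrays stood apart from that of GFP-negative arrays less than from that of the mutant ones, at standard deviations over genes of 1.68 to 1.77 against 1.76 to 1.84. Hormone-sensing luminal markers averaged 5.14 to 5.27 in GFP-positive against 4.77 to 5.11 in GFP-negative arrays, and basal markers 10.51 to 10.58 against 10.65 to 10.91, and their part was not tested. Across the 8 groups, control basal GFP-positive and control luminal Sca1-positive cells had the lowest mean for 22 members each. The highest mean was in mutant basal GFP-negative cells for 22 members, by way of replicate 1, in control basal GFP-negative cells for 8, and in mutant luminal Sca1-positive cells for 7. The matching shares of all genes are not given here, so these counts do not set the members apart.

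In mutant basal cells, GFP-positive against GFP-negative, no member passed, where 1.77% of all genes were called higher and 0.737% lower. The medians of -0.25 and -0.37 turned to 0.07 and 0.31 without GFP-negative replicate 1, with 37 of 48 members then higher in GFP-positive cells. With all arrays no member was without overlap, beside 8.92% of all genes with GFP-positive higher and 11.3% with it lower. Of 41 other mitosis genes Cdca5 (sororin, which guards sister chromatid cohesion) fell by 0.91, at 4.07, 4.12 and 4.44 in GFP-positive arrays, against 4.98, 5.72 and 4.66 in GFP-negative arrays (limma adjusted p = 0.0429). That call was lost in 8 of 14 alternatives, among them without any 1 GFP-positive array or GFP-negative replicate 1 or 2. Mutant basal GFP-positive against control basal GFP-negative cells gave medians of -0.24 and 0.00 and no member that passed, where 2.29% of all genes were called higher and 0.928% lower. Ccne1 lay higher and Pcna lower without overlap, beside 8.9% and 14.9% of all genes. Top2a stood at 5.99, 4.65 and 7.01 in the mutant GFP-positive arrays, against 6.96, 7.24 and 6.68.

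Ccne1 ran apart from the other replication genes. This cyclin E, which starts replication with Cdk2, stood at 4.72, 5.56 and 6.74 in mutant basal GFP-positive arrays and at 4.68, 6.17 and 4.56 in control basal GFP-positive arrays. It was high in 3 of these 6 pools and stood between 4.19 and 4.82 in all 18 other arrays. Mutant luminal Sca1-negative cells had 4.35, 4.34 and 4.48, and it fell there by 1.28 relative to mutant basal GFP-positive cells (SE 0.38, 95% interval of the log2 difference -2.09 to -0.48, limma adjusted p = 0.0471). It was the only member that passed in that comparison, where 3.62% of all genes were called higher and 4.24% lower. The call was lost in 9 of 15 alternatives, with an adjusted p of up to 0.283, and the difference lay between -1.76 and -0.75. The smallest difference, -0.75, came without mutant basal GFP-positive replicate 3, and leaving out replicate 2 of that group or any 1 luminal array also ended the call.

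The group means of Ccne1 were 5.67 ± 1.01 in mutant basal GFP-positive cells and 5.14 ± 0.90 in the control ones (SD, n = 3 each), and 4.26 to 4.70 in the other 6 groups. The 2 GFP-positive groups overlapped. The second cyclin E gene, Ccne2, did not follow: in basal GFP-positive cells it stood at 4.50, 4.55 and 4.78 in mutant arrays and 4.37, 4.35 and 4.18 in control arrays, and its highest value, 5.56, was in mutant basal GFP-negative replicate 1. The same luminal against basal comparison called 4 of 13 inhibitors, with Rb1 and Btg1 higher in luminal cells and Gas1, a growth arrest gene, and Cdkn1c lower. Leaving out any 1 of the 6 arrays ended the call of Btg1. Among the members, Ccne1 alone lay without overlap, beside 11.2% of all genes with luminal lower and 15.7% with luminal higher.

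**Figure D4:**
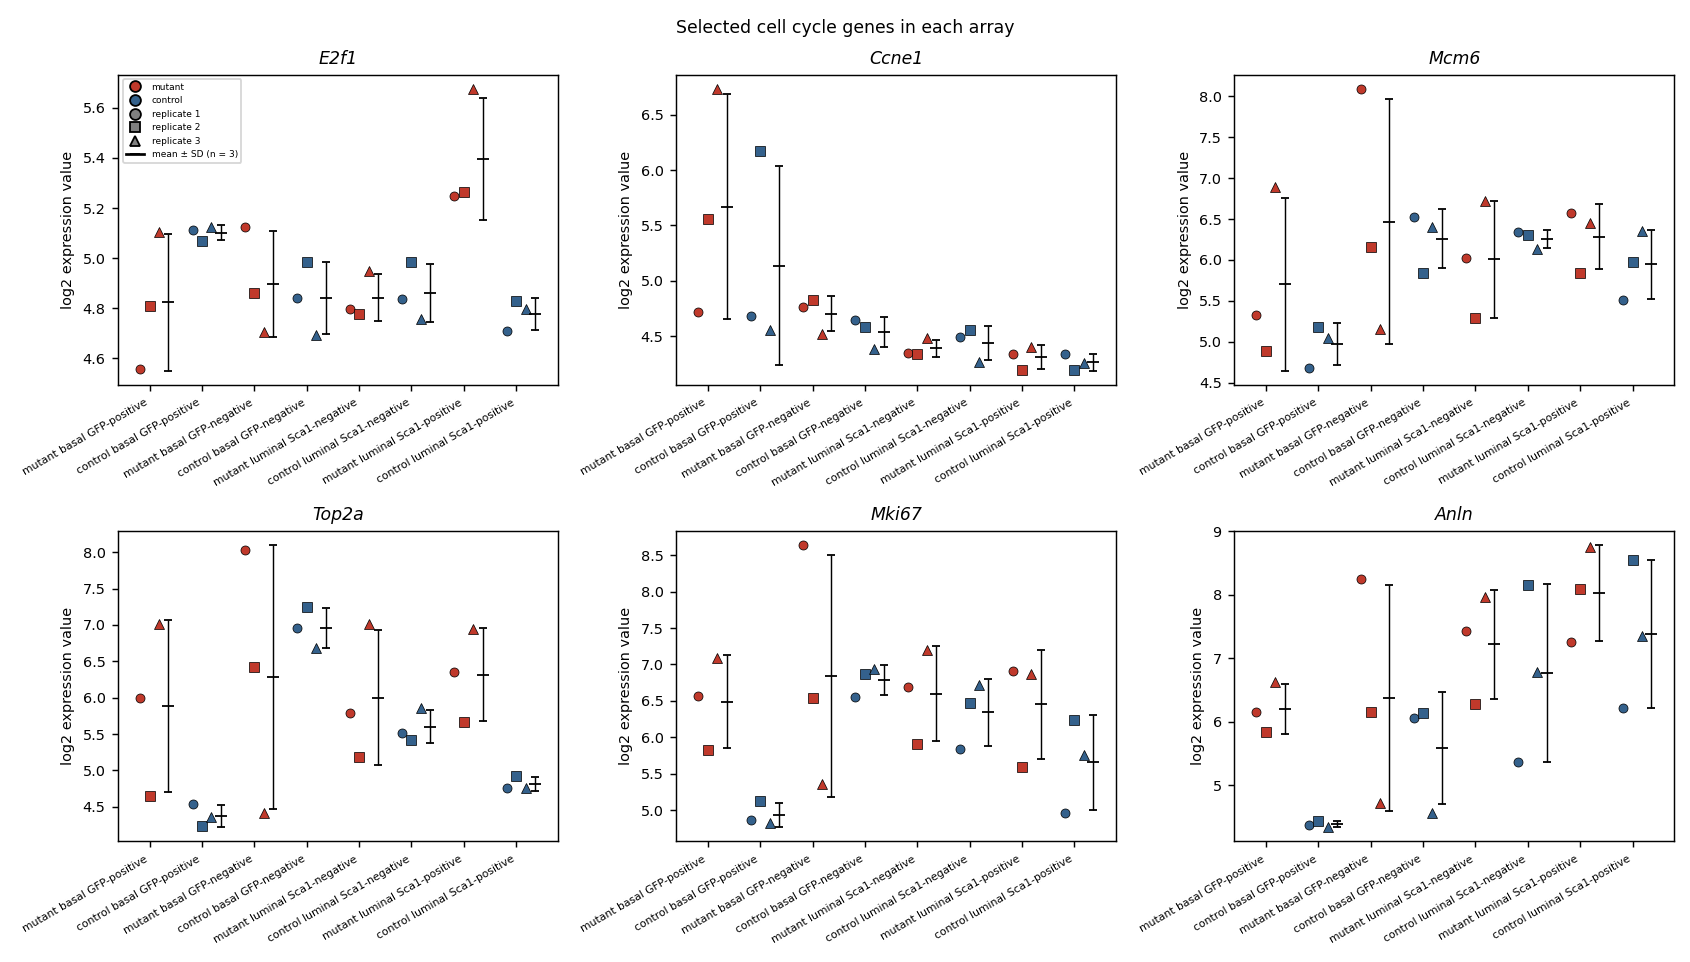
Log2 expression value of 6 of the 48 genes in each array, by group, with the group mean ± SD (n = 3) beside the points; the vertical scales differ between panels. E2f1 is highest in the 3 mutant luminal Sca1-positive arrays (5.25 to 5.68), Ccne1 in single basal GFP-positive arrays, Mcm6, Top2a and Mki67 in mutant basal GFP-negative replicate 1, and Anln in luminal arrays.

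Control luminal Sca1-negative against control basal GFP-negative cells gave no member that passed, where 4.93% of all genes were called higher and 4.9% lower. Mcm2 and Top2a lay lower in luminal cells without overlap, beside 11.5% of all genes, and no member lay higher, beside 13.3%. The medians were -0.30 for replication and -0.12 for mitosis genes, against 0.02 for all genes. Rrm2 stood at 4.79, 6.003 and 5.43 in luminal arrays, against 8.57, 6.73 and 5.85 in basal arrays (-1.64 ± 0.68, limma adjusted p = 0.159), and Pcna, the sliding clamp of DNA polymerases, at 10.24, 8.93 and 11.05, against 11.06, 11.28 and 10.88. The second probe set of Pcna lay closer between these groups, with means of 10.38 in luminal and 10.68 in basal cells. Of 29 other replication genes, Dut, which removes dUTP, fell to 6.30, 6.98 and 7.07 in luminal arrays, against 7.31, 8.23 and 8.59 in basal arrays (limma adjusted p = 0.0371). Rfc5, a subunit of the loader of Pcna, rose to 9.31, 8.86 and 8.61, against 7.56, 7.08 and 7.53 (limma adjusted p = 0.0409). Rfc5 lost the call in 7 and Dut in 6 of 15 alternatives, Rfc5 without any 1 of the 6 arrays and Dut without basal GFP-negative replicate 2 or 3 or luminal replicate 1 or 2. Among cyclins and inhibitors, Ccnd2 fell to 5.66, 5.19 and 5.50 in luminal arrays, against 8.47, 9.14 and 7.87 in basal arrays, and Gas1 to 6.25, 6.45 and 6.57, against 9.95, 8.25 and 9.47. Rb1 rose by 2.42 ± 0.46, Wee1, a kinase that holds Cdk1 inactive, by 1.59 ± 0.33 and Btg1 by 1.28 ± 0.21.

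Anln, which encodes the actin-binding protein anillin of the cleavage furrow, had the widest range of all members, 4.40 log2 units, and was singled out after its values were seen. Its means were 7.22 ± 0.86 in mutant and 6.77 ± 1.40 in control luminal Sca1-negative cells, and 8.03 ± 0.75 and 7.38 ± 1.16 in luminal Sca1-positive cells (SD, n = 3 each). In basal cells they were 6.20 ± 0.40 in mutant and 4.39 ± 0.05 in control GFP-positive, and 6.38 ± 1.78 and 5.59 ± 0.88 in GFP-negative cells. The luminal means were the 4 highest of the 8 groups, and neighbours in that order did not differ beyond their spread. The luminal Sca1-negative against basal GFP-negative difference in control cells was 1.18 ± 0.81 (limma adjusted p = 0.464).

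At the narrow end, Cdc6 spanned 0.77 and Cdt1 0.93 log2 units over the 24 arrays, both chosen after their values were seen. Cdc6 stood between 4.19 and 4.95, close to the background level of 4.30, where an array compresses differences. Chek1, the checkpoint kinase that guards replication forks, spanned 1.51 and stood between 3.58 and 5.09, on both sides of background. Foxm1, the factor that drives mitotic genes, spanned 1.65, from 4.13 to 5.78, and Birc5 (survivin), a partner of Aurora B, 2.06, from 4.20 to 6.25. Both had their highest value in mutant basal GFP-negative replicate 1. The second probe set of Pcna had group means of 9.95 to 10.68, and the second of Top2a had 3.48 to 4.26, below background in every group.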

How the data were processed

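RNA was hybridised to 24 Affymetrix Gene 1.0 ST arrays in 8 sorted groups of 3. The authors deposited 1 log2 value per probe set and array, and the scale was taken from the values, which ran from 2.59 to 13.54. The submitters' processing notes name affy; its version and role, the background correction and the normalization are not given in the sources used here. Of 34760 probe sets, 21640 had 1 gene symbol and gave 19937 genes, and the 13120 others entered no test. A single limma fit (limma 3.58.1, R 4.3.3) gave each group its own mean over all 24 arrays, with 16 residual degrees of freedom. P-values were two-sided and adjusted by Benjamini-Hochberg over all genes within each of 11 group pairs and 3 differences of mutant effects. Errors are standard errors of the fit (SE) or, for levels, standard deviations (SD). Each replicate is a pool of 2 to 3 mice from its own sorting, and the number of arrays limits the precision.

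The members, the lists of other genes and the comparisons were chosen with earlier results of these data known. Members named are those called, up to 4 of each phase with the smallest p, and a fixed set of 15; the text says where another name was picked after seeing its values. Of the other cell cycle lists, up to 4 called genes with the smallest p are named in each comparison, and marker lists are given mainly by their means. The code was tested on simulated data. Alternatives were quantile normalization, leaving out dim genes, averaging probe sets, other samples in the fit, array weights, a variance trend, a replicate block and leaving out each array.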

Additional observations from a re-analysis of the deposited data

Results flagged for a closer look

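Cks2, a subunit of cyclin-dependent kinases, had mutant effects that differed between the basal gates. Its log2 difference, mutant minus control, was larger in GFP-positive than in GFP-negative cells by 2.86 ± 0.63 (SE; limma adjusted p = 0.0338), and the call was lost in 10 of 19 alternatives, 8 of them leaving out 1 array. With its probe sets averaged the value was 1.31. The 3 control basal GFP-positive arrays stood at 5.65, 7.50 and 4.91, and the other 21 arrays between 7.85 and 9.42.

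Cdkn1c, an inhibitor of those kinases, had a mutant effect in luminal Sca1-negative cells that was lower than in basal GFP-positive cells by a log2 difference of -0.67 ± 0.15 (SE; limma adjusted p = 0.0346). It averaged 4.76 in mutant and 4.84 in control luminal Sca1-negative cells, and in basal GFP-positive cells 5.66 in mutant and 5.06 in control arrays. The call was lost in 12 of 20 alternatives, 8 of them leaving out 1 array.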

How the results depend on the processing

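Of the counts of members called, 188 kept within 1.5 times of the value reported and 33 did not. The counts reported were 0 or 1 and mostly 0, so a kept count mostly means that 0 stayed 0. No difference of a named gene changed sign where it passed on either side. Of 3857 such differences under alternatives 191 had the other sign, none of them past the threshold, among them Mki67 in mutant against control basal GFP-negative cells (0.05, and -0.85 without mutant replicate 1). In mutant against control basal GFP-positive cells 0 members became 1 with only the compared groups in the fit (Anln), 4 without the mutant basal GFP-negative arrays, and 0 to 2 when 1 array was left out. In mutant against control luminal Sca1-positive cells 1 became 0 under quantile normalization, with only the compared groups, without the control basal GFP-positive arrays, with a variance trend and with the replicate block, and lay between 0 and 1 without 1 array. Between mutant luminal Sca1-negative and mutant basal GFP-positive cells 1 became 0 under quantile normalization, with only the compared groups, with the replicate block and without the mutant basal GFP-negative arrays, and was 0 to 1 without 1 array. In mutant luminal Sca1-positive against Sca1-negative cells 1 became 0 under quantile normalization and with only the compared groups, and was 0 to 1 without 1 array. Without the mutant basal GFP-negative arrays control basal GFP-positive against GFP-negative cells gave 3. Leaving out 1 array gave 0 to 1 for mutant basal GFP-positive against control basal GFP-negative cells (Ccne1), 0 to 2 for mutant basal GFP-positive against GFP-negative cells (Mcm4 and Melk), and 0 to 1 for control luminal Sca1-negative against basal GFP-negative cells (Pcna), where only the compared groups gave 1 (Top2a). Fits with fewer groups have fewer residual degrees of freedom; otherwise the cause was not tested. Low signal limits Gins1, Cdc6 and Chek1, and mitosis genes as well. Ttk (3.96), Cenpe (4.04), Nuf2 (4.12), Bub1 (4.14), Cenpf (4.22), Ect2 (4.27) and Bub1b (4.27), picked after their values were seen, had means over all arrays below the background level of 4.30.

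Whether a replicate number marks one sorting is not stated, and the numbers were not treated as pairs: same-numbered arrays correlated in their deviations from the group means at -0.08 to 0.18 (median 0.03, against -0.02 for other numbers), and in 0 of 11 comparisons were all 3 correlations over 0.1, though 20 of 24 arrays correlated best, on average, with arrays of their own number in other groups, a hint from the data and not from the design. With the replicate block the adjusted p of E2f1 was 0.0560 in mutant against control luminal Sca1-positive cells and 0.0378 between the mutant luminal gates, and that of Ccne1 was 0.0582.

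Of the called genes of other lists, Gas1, Ccnd2 and Rb1 in both luminal against basal comparisons were called under all 15 alternatives. In basal GFP-positive cells, mutant against control, Cks2 and Cdkn1c lost the call in 1 of 14, Cdk6 in 2, Ccnd2 and Cdkn2a in 3, and Cks1b, Orc6 and Btg1 in 5.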
